A study of Mus musculus with 11 samples.

Results

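The transcripts described here are those of 10 antioxidant and Nrf2 pathway genes: Nfe2l2, Keap1, Sod1, Sod2, Cat, Gpx1, Gpx4, Prdx1, Hmox1 and Nqo1. They were taken by name from a fixed list, chosen with earlier results of these data known. All 10 were among the 14602 genes counted in RNA of mouse RPE/choroid, the pigmented epithelium behind the retina together with its vascular bed. The mice were C57BL/6J, 9 months old at the start and 12 months old at collection, and the labels give no transgene or mutant allele. The 5 laser treated libraries came from mice that received the nanosecond laser when 9 months old and were then left for 3 months, and the 6 naïve control libraries came from untreated mice of the same age. The laser was applied monocularly and in separate spots, while RNA was taken from the tissue of the eye cup as a whole, so treated and untreated epithelium were pooled in each laser treated library. RNA was pre-amplified with a SmartSeq v4 kit before the libraries were made. The labels do not say that each library is a separate animal, and p-values therefore measure the spread between these samples only.

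Total counts per library were 25700881 to 36766020 in controls and 32094560 to 38755994 after laser. All 12 markers of the retinal pigment epithelium were in the table, and Rgr and Rpe65 ranked 1 and 5 of all genes by mean level, but Best1 was near the floor, with a control mean of 1.20 CPM (counts scaled to library size) and no read in 3 libraries. Markers of neural retina, which had been dissected away, still summed to 6129 to 22429 CPM in controls and 4078 to 19644 CPM after laser. Schwann cell markers, 5 of 6 of them in the table, summed to 295 to 535 CPM in controls and 398 to 1120 CPM after laser, with Prx and Mag at 0 in 2 libraries each. Mbp and Mag had means of 59.0 and 0.615 CPM in controls and 275 and 6.20 CPM after laser (edgeR unadjusted p = 0.012 and 0.014). Pmp22, at 315 and 305 CPM, and Prx, at 1.89 and 0.683 CPM, had lower means after laser, with unadjusted p of 0.740 and 0.272 in edgeR. The part of these other cells in the values given here was not tested. In such bulk RNA, fewer cells of a type and less RNA per cell cannot be told apart.

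Nrf2, the protein of Nfe2l2, is a transcription factor that switches on detoxifying and antioxidant genes. Keap1 holds Nrf2 in the cytoplasm and presents it to a Cul3 ubiquitin ligase for degradation, and oxidants or electrophiles that modify Keap1 release it to bind antioxidant response elements in its target genes. The retinal pigment epithelium is exposed to light, high oxygen and the daily uptake of photoreceptor membranes, and relies on superoxide dismutases, catalase, glutathione peroxidases and peroxiredoxins to clear the superoxide and peroxides that result.

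The DNA before the transcription start of 9 of the genes, all but Hmox1, was searched for the core of the antioxidant response element, TGACNNNGC, on both strands. RefSeq gave 12 windows of 250 bases for these 9 genes on GRCm38.p6, since Gpx4 has several starts, some with overlapping windows. The core was found in 3 of the 12 windows, those of Nfe2l2, Sod1 and Prdx1, and in 10.2% of the 32851 mouse windows. The windows with a match are shown 5′ to 3′ along the gene, ending at the base before the start, with the match in capitals. They lie at chr2:75704664-75704913 (minus strand) for Nfe2l2, chr16:90220512-90220761 (plus strand) for Sod1 and chr4:116685349-116685598 (plus strand) for Prdx1.
Nfe2l2: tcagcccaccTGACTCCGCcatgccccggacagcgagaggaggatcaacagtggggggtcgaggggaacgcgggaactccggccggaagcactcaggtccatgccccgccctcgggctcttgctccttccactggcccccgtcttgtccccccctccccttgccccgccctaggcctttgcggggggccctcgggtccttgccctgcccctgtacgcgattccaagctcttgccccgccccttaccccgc
Sod1: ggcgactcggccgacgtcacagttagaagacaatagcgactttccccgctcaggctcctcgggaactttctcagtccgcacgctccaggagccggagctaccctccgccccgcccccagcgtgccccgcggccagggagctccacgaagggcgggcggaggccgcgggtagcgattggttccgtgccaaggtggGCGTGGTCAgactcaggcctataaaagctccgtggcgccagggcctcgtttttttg
Prdx1: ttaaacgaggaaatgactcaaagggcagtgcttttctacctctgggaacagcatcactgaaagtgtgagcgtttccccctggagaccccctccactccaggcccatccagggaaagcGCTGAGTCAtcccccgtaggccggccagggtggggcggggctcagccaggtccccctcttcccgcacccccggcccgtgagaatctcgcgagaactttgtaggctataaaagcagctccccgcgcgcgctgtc
The match in Nfe2l2 began 240 bases before the start and read along the gene. The match in Sod1 began 56 bases before the start and lay on the opposite strand. The match in Prdx1 began 133 bases before the start, also on the opposite strand, and overlaps a copy of TGACTCA, the site of AP-1-type factors. A further copy of TGACTCA, in lower case above, began 237 bases before the Prdx1 start. Prdx1 was the only one of the 9 genes with TGACTCA in its window, a sequence held by 4.46% of all windows. A match is a description of the sequence, and binding was not measured here. DNA outside these windows was not searched, so a gene without a match may hold the core elsewhere.

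The genes spanned a wide range of levels. Per length, as TPM (counts scaled to transcript length and library size) computed from the counts and the length of the principal transcript, the mean over the 11 libraries was 2663 for Gpx4 and 1097 for Prdx1, against 45.4 for Nfe2l2, 34.8 for Keap1 and 17.4 for Hmox1. Between these lay Cat at 454, Gpx1 at 367, Sod1 at 248, Nqo1 at 199 and Sod2 at 57.9 TPM. The peroxide-removing enzymes were thus the most abundant, and the pair of regulators and the haem-degrading enzyme Hmox1 the least. Gpx4 was above Prdx1, Prdx1 above Cat, Nqo1 above Sod2, and Keap1 above Hmox1 in all 11 libraries. The order of the other neighbours was less firm, with Cat above Gpx1 and Gpx1 above Sod1 in 9 libraries each and Sod1 above Nqo1 in 7. With the length of all annotated exons in place of the principal transcript, the level of Sod1 fell to 59.6 TPM, below Nqo1. The principal transcript of Sod1 has 641 bases and its annotated exons together 3970.

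**Figure D1:**
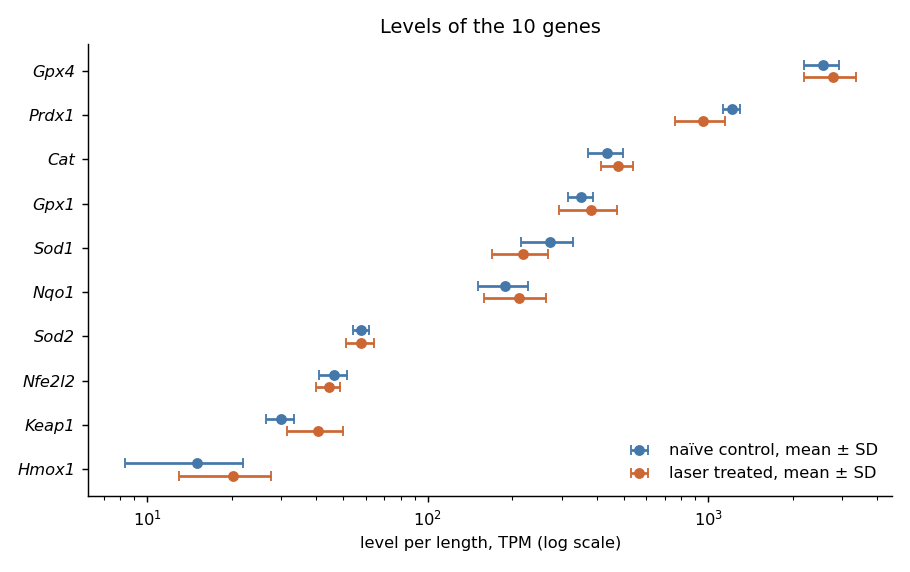
Level per length of the 10 genes in TPM on a log axis, as the mean and SD of 6 naïve control libraries (blue) and 5 laser treated libraries (orange). Gpx4 and Prdx1 are the highest and Hmox1 is the lowest, and the group means of each gene lie close to each other on this scale.

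The 10 genes together took 0.371% to 0.430% of the counts of a control library and 0.286% to 0.450% of those of a laser treated library. Prdx1, Gpx4 and Cat made up 77.9% to 83.2% of this share in every library. Some counts could come from copies elsewhere in the genome. Of all runs of 50 bases in the transcript, 68.9% of those of Gpx4 also occur in other genes, mostly the pseudogene Gpx4-ps2, as do 23.1% of those of Sod1 and 10.9% of those of Prdx1. For Keap1 the share was 10.4%, all of it with the overlapping antisense gene Gm16754, from which its reads cannot be told apart in libraries of a kit that does not mark strand. The values of these 4 genes are uncertain to that extent. Sod2 shared 1.43% and the other 5 genes none.

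The comparison of laser treated with naïve control libraries asked whether these genes differed 3 months after the laser. None of the 10 passed an adjusted p of 0.05 (edgeR's quasi-likelihood test, Benjamini-Hochberg over all genes), and neither did any of the 14602 genes (0%). An unadjusted p under 0.05 was found for 2 of the 10, beside 15.9% of all genes. These were Keap1, with a higher mean after laser, beside 8.24% of all genes in that direction, and Prdx1, with a lower mean, beside 7.68%. The number was 0 without naïve control library 3 or 5 or laser treated library 2, 3 or 4, and it was 3, with Sod1 added, without naïve control library 6 or laser treated library 5. DESeq2 called 502 genes of the table at an adjusted p under 0.05, and none of the 10, though it gave Hmox1 no adjusted p. The mean was higher after laser for 6 of the 10 and lower for 4, with a median log2 fold change of 0.06, beside 48.5% higher and a median of -0.02 over all genes. Without naïve control library 3 it was higher for 2 of the 10, and without laser treated library 1 or 5 for 4. In none of the 10 were the groups free of overlap, as they were in 2.26% of all genes.

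**Figure D2:**
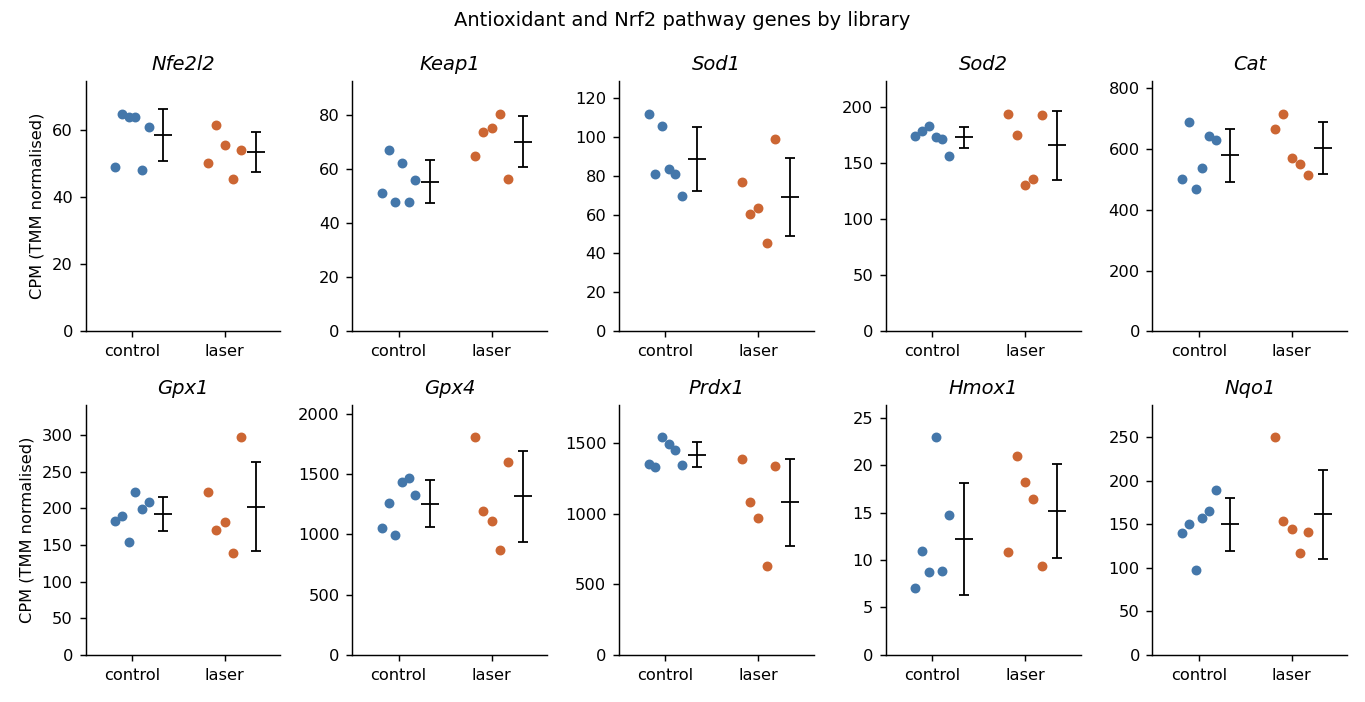
TMM-normalised CPM of each gene in every library, with axes from 0. Points are the 6 naïve control (blue) and 5 laser treated (orange) libraries in order of their replicate number, and bars give the mean and SD. The groups overlap for all 10 genes, and the laser treated points of Sod2, Gpx1, Gpx4 and Prdx1 are spread more widely than the controls.

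Of the regulators, Nfe2l2 was even between libraries. Its control values ran from 48.0 through a median of 62.2 to 64.7 CPM, and the laser treated libraries 1 to 5 read 50.2, 61.5, 55.5, 45.4 and 54.1 CPM. All 5 laser treated libraries were below the control median and 1 was below every control. The means were 58.3 ± 7.80 CPM (SD, n = 6) and 53.3 ± 6.02 CPM (SD, n = 5), with a log2 fold change of -0.13 with a standard error of 0.14 (edgeR adjusted p = 0.718), which is within the spread between replicates.

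Keap1, the repressor of Nrf2, had control values from 47.7 through a median of 53.5 to 67.2 CPM. The laser treated libraries 1 to 5 read 65.0, 74.0, 75.1, 80.6 and 56.6 CPM. All 5 were above the control median and 3 were above every control, while laser treated libraries 1 and 5 lay within the control range. The means were 55.3 ± 7.99 CPM (SD, n = 6) and 70.3 ± 9.47 CPM (SD, n = 5). The log2 fold change was 0.34 with a standard error of 0.14 and a 95% interval of 0.05 to 0.64 (edgeR unadjusted p = 0.027, adjusted p = 0.252), so the difference did not pass the test over all genes.

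Keap1 and Nfe2l2 can also be set against each other within a library, where the scaling to library size drops out but a trend on base composition does not. The ratio of Keap1 to Nfe2l2 counts was 0.954 ± 0.109 in controls (SD, n = 6) and 1.33 ± 0.272 after laser (SD, n = 5). The highest control stood at 1.0458 and the lowest laser treated library at 1.0461, so the groups met almost exactly at that point. The other 4 laser treated libraries lay between 1.20 and 1.78. The transcript of Keap1 has a GC content of 58.0% and that of Nfe2l2 one of 46.8%, and with the GC trend of each library removed the log2 fold changes of the pair were 0.07 and 0.01. The ratio was computed after the values of both genes were seen.

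Both superoxide dismutases convert superoxide to hydrogen peroxide, Sod1 mainly in the cytosol and Sod2 in mitochondria. Sod1 read 69.4 CPM in the lowest control, 82.1 at the control median and 112 in the highest, and 77.0, 60.6, 63.2, 45.2 and 99.1 CPM in laser treated libraries 1 to 5. Of the laser treated libraries 3 were below every control, and library 5 was above the control median. The means of 88.7 ± 16.4 CPM (SD, n = 6) and 69.0 ± 20.2 CPM (SD, n = 5) gave a log2 fold change of -0.36 with a standard error of 0.19 (edgeR adjusted p = 0.383).

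Sod2 was the steadiest of the 10 genes among controls, from 156 through a median of 174 to 184 CPM, a coefficient of variation of 5.35%. The laser treated libraries read 194, 175, 131, 136 and 193 CPM, with 2 above every control and 2 below every control. The group means were nevertheless close, 173 ± 9.26 CPM (SD, n = 6) and 166 ± 30.7 CPM (SD, n = 5), with a log2 fold change of -0.06 (standard error 0.13, edgeR adjusted p = 0.878).

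Of the enzymes that remove peroxides, Prdx1 had the lower mean after laser. Prdx1 is an abundant cytosolic peroxiredoxin that reduces hydrogen peroxide with electrons from thioredoxin. Its control values ran from 1329 through a median of 1403 to 1542 CPM, and the laser treated libraries read 1389, 1082, 971, 630 and 1339.5 CPM. All 5 laser treated libraries were below the control median and 3 were below every control, while libraries 1 and 5 were inside the control range. The controls had a coefficient of variation of 6.35% and the laser treated libraries one of 28.4%. The means were 1420.1 ± 90.2 CPM (SD, n = 6) and 1082 ± 307 CPM (SD, n = 5), with a log2 fold change of -0.39 with a standard error of 0.17 and a 95% interval of -0.76 to -0.03 (edgeR unadjusted p = 0.037, adjusted p = 0.282). The difference thus did not pass the test over all genes. Laser treated library 4, the lowest for Prdx1, was also the lowest of all 11 libraries for Nfe2l2, Sod1, Gpx1 and Gpx4 and the highest for Keap1. It had the lowest sum of pigment epithelium markers, 77712 CPM beside 94646 to 131882 CPM in controls, and a neural retina sum of 19644 CPM. The part of this library's makeup in its values was not tested, and without it the log2 fold change of Prdx1 was -0.26, with an unadjusted p of 0.051 in edgeR.

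Cat, the peroxisomal catalase, differed little. Controls ran from 469 through a median of 584 to 691 CPM, and the laser treated libraries read 667, 717, 571, 552 and 513 CPM, 4 of them inside the control range. The log2 fold change was 0.06 with a standard error of 0.13 (edgeR adjusted p = 0.885), and the 95% interval of -0.22 to 0.34 bounds the difference at this depth.

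The selenoenzymes Gpx1, which reduces hydrogen peroxide with glutathione, and Gpx4, which reduces lipid hydroperoxides in membranes, had almost the same mean in both groups. Gpx1 ran from 154 through a median of 194 to 222 CPM in controls and read 222, 170, 182, 139 and 297 CPM in the laser treated libraries. Gpx4 ran from 996 through 1294 to 1468 CPM in controls and read 1804, 1194, 1109, 867 and 1599 CPM after laser. Laser treated libraries 1 and 5 were thus the highest and library 4 the lowest for Gpx4, and only library 5 was above every control for Gpx1. The log2 fold change was 0.07 for each (standard errors 0.17 and 0.18, edgeR adjusted p = 0.901 and 0.910).

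Hmox1 and Nqo1 are inducible targets of Nrf2. Hmox1, haem oxygenase 1, had few counts, from 248 to 772 per library, and the widest relative spread among controls, 7.02 through a median of 9.89 to 22.9 CPM. The laser treated libraries read 10.9, 20.98, 18.2, 16.4 and 9.38 CPM, all within the control range. The means were 12.2 ± 5.89 CPM (SD, n = 6) and 15.2 ± 4.91 CPM (SD, n = 5), and the log2 fold change of 0.31 had a standard error of 0.33 (edgeR adjusted p = 0.718). At this spread the 95% interval ran from -0.39 to 1.02, the widest of the 10 genes.

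Nqo1 encodes a quinone reductase of the cytosol. Controls ran from 97.4 through a median of 153 to 189 CPM, and the laser treated libraries read 249.5, 153, 145, 117 and 141 CPM. Library 1 was above every control, while the other 4 were inside the control range and below the control median. The log2 fold change was 0.11 with a standard error of 0.20 (edgeR adjusted p = 0.863), and without laser treated library 1 it was -0.11. The transcript files carry a label, R1 or R2, in each library, whose meaning the sources used here do not give. Nqo1 had a log2 fold change of 0.66 within the 5 libraries labelled R1 and -0.32 within the 6 labelled R2. The difference between these effects was -0.98 with a standard error of 0.32 (edgeR interaction, unadjusted p = 0.0096, adjusted p = 0.386), and so did not pass the test over all genes. Laser treated library 1 is 1 of the 2 laser treated libraries labelled R1.

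Within these labels the 2 genes with the smallest p kept their direction. The log2 fold change of Keap1 was 0.35 within R1 and 0.38 within R2, and that of Prdx1 was -0.16 and -0.53. The mean after laser was higher for 7 of the 10 genes within R1 and for 1 within R2, beside 7150 of 14489 and 7681 of 14517 genes. No gene of the 10 had an unadjusted p under 0.05 within either label, beside 2547 of 14489 genes within R1 and 903 of 14517 within R2.

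Libraries also differed in how counts depended on base composition. Here log2 CPM was taken as each gene's deviation from its mean over all libraries, so the slopes are relative to the average library. The slope of this deviation on transcript GC content, over all genes, was -0.363 to -0.00744 per 10 percentage points in the 6 controls. It was 0.0130 to 0.288 in the 5 laser treated libraries, without overlap. Across 14252 genes, which are not independent replicates, the log2 fold change correlated with GC content at r = 0.38. The 10 genes differ in GC content. Keap1 has a GC content of 58.0%, Gpx4 of 58.8% and Gpx1 of 57.2%, against 42.3% for Prdx1 and 42.2% for Sod2. The others lie between, from 46.7% for Nqo1 to 53.3% for Hmox1.

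With the GC trend of each library removed, the log2 fold change of Keap1 was 0.07 with a standard error of 0.13, and that of Prdx1 was -0.10 with a standard error of 0.16 (edgeR adjusted p = 0.925 and 0.911). Sod1, at 53.2% GC, had -0.51 with a standard error of 0.21 (edgeR unadjusted p = 0.028, adjusted p = 0.578). With the trend on transcript length removed in its place, Sod1 had -0.04 (edgeR adjusted p = 0.934). In the fit with the GC trend removed, Sod2 moved from -0.06 to 0.24 (standard error 0.11, edgeR adjusted p = 0.606). Gpx1 and Gpx4 moved to -0.17 and -0.18, and Nfe2l2 to 0.01. Over all genes, 1202 had an unadjusted p under 0.05 in this fit, against 2325 without it. Since the slopes separate the groups, the laser and the composition trend cannot be told apart in these libraries.

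**Figure D3:**
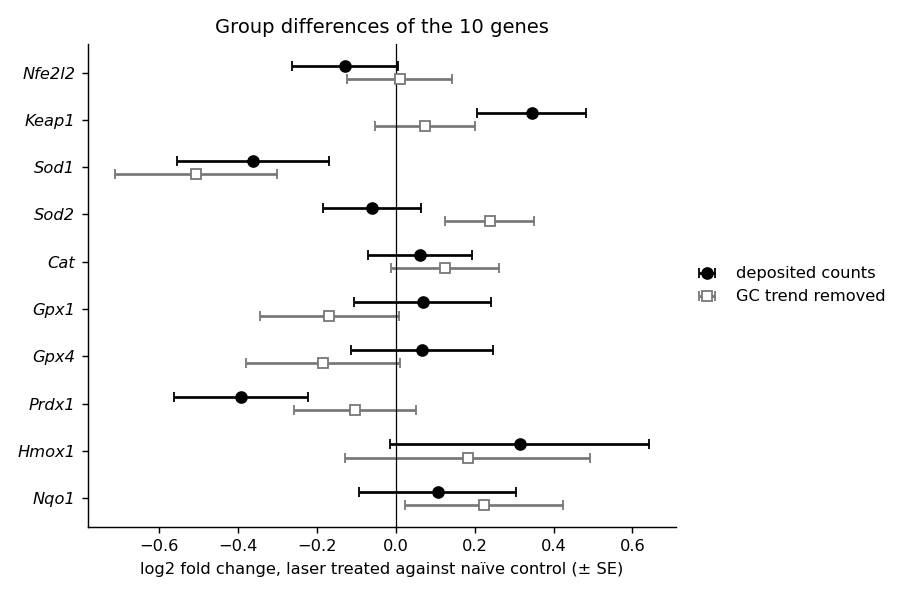
Log2 fold change between the groups (laser treated minus naïve control) with its standard error, for the deposited counts (black circles) and after removal of the GC trend of each library (grey squares). Keap1 moves from 0.34 to 0.07 and Prdx1 from -0.39 to -0.10, while Sod1 lies below 0 in both.

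**Figure D4:**
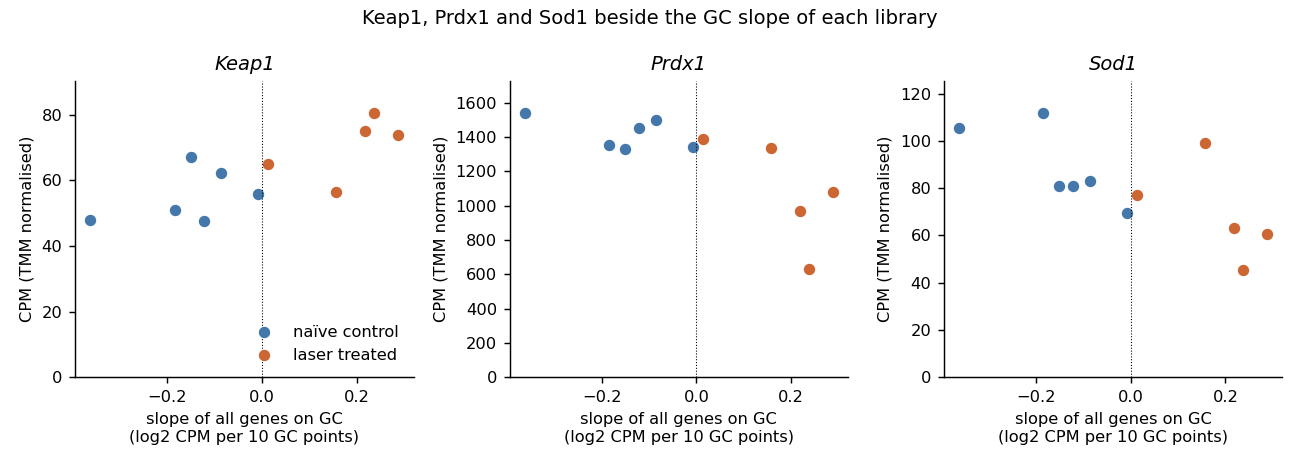
TMM-normalised CPM of Keap1, Prdx1 and Sod1 in each library against the slope of all genes on transcript GC content, with naïve control libraries in blue and laser treated libraries in orange. The slope is of each gene's deviation from its mean log2 CPM over all libraries, per 10 percentage points, so 0 stands for the average library. All controls lie left of 0 and all laser treated libraries right of it, and laser treated library 1, at 0.0130, has Keap1 and Prdx1 values of 65.0 and 1389 CPM.

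Correlations between the genes were taken across the 11 libraries, with both groups pooled. Of the 45 pairs, 30 had a positive Pearson correlation of log2 CPM, and 5 pairs passed a permutation test with Benjamini-Hochberg adjustment over the 45. The share of all gene pairs that would pass was not computed, so these counts are a description. The part of the group difference and of the GC trend in these correlations was not tested. Gpx1 and Gpx4 were the 1 pair that passed by Pearson's r (0.86, permutation p = 0.00092, adjusted p = 0.015) and by Spearman's rho (0.90, permutation p = 0.00039, adjusted p = 0.01755). Their r was 0.85 without the 2 libraries farthest from the median of Gpx1, 0.87 within the 6 controls and 0.91 within the 6 libraries labelled R2. The correlation of these glutathione peroxidases was thus as high among the untreated libraries alone.

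For the pairs with Keap1 it was weaker among controls. Keap1 and Prdx1 had an r of -0.77 (permutation p = 0.00042, adjusted p = 0.015) and a rho of -0.81 (permutation p = 0.00401, adjusted p = 0.0902). Without the 2 libraries farthest from the median of Keap1 r was -0.75, and within the 6 controls it was -0.41. Keap1 and Sod1 had an r of -0.81 (permutation p = 0.00227, adjusted p = 0.0255), and -0.46 within controls, with a rho of -0.71 (permutation p = 0.0183, adjusted p = 0.165). Sod1 and Prdx1 had an r of 0.84 (permutation p = 0.001, adjusted p = 0.015) and a rho of 0.68 (permutation p = 0.0253, adjusted p = 0.176), and 0.29 within controls. Gpx4 and Nqo1 had an r of 0.78 (permutation p = 0.00446, adjusted p = 0.0401), 0.59 without the 2 farthest libraries and 0.80 within controls, with a rho of 0.76 (permutation p = 0.00872, adjusted p = 0.131). Of the 5 libraries labelled R1 no correlation is given, since they are too few.

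For each gene, the gene of the whole table with the most similar log2 CPM over the 11 libraries was Tmbim4 for Prdx1 (r = 0.99), Cmc1 for Sod1 (0.98), Bcl7c for Gpx1 (0.97), Lrrc14 for Keap1 (0.96) and Rhoc for Gpx4 (0.96). For Nfe2l2 it was 1200014J11Rik, now named Ncbp3 (0.94), for Nqo1 Chit1 (0.92) and for Cat Olfm1 (0.92). Sod2 and Hmox1 had the least similar neighbours, Gm9766 and Gm14873, each at 0.90. Each is the highest value over the whole table and is given as a description.

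The pathway reaches well beyond these genes, and a wider list of 102 antioxidant genes was set beside them, of which 93 were in the table. None passed an adjusted p of 0.05 in edgeR. An unadjusted p under 0.05 was found for 13 of the 93, beside 15.9% of all genes. DESeq2 called 2 of the 93, Pgd and Cul3 (adjusted p = 0.015 and 0.039), beside 502 of all 14602 genes. The mean after laser was higher for 50 genes and lower for 43, with a median log2 fold change of 0.06, beside 48.5% higher over all genes. This split turned to 43 higher and 50 lower with the GC trend removed, and it was 60 and 33 within R1 and 34 and 59 within R2. Over all genes, 7237 of 14602, 7150 of 14489 and 7681 of 14517 were higher in these fits, in that order. The groups did not overlap for 3 of the 93, Pgd, Slc3a2 and Ggct, beside 2.26% of all genes. With the GC trend removed, 4 of the 93 had an unadjusted p under 0.05, beside 1202 of all 14602.

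**Figure D5:**
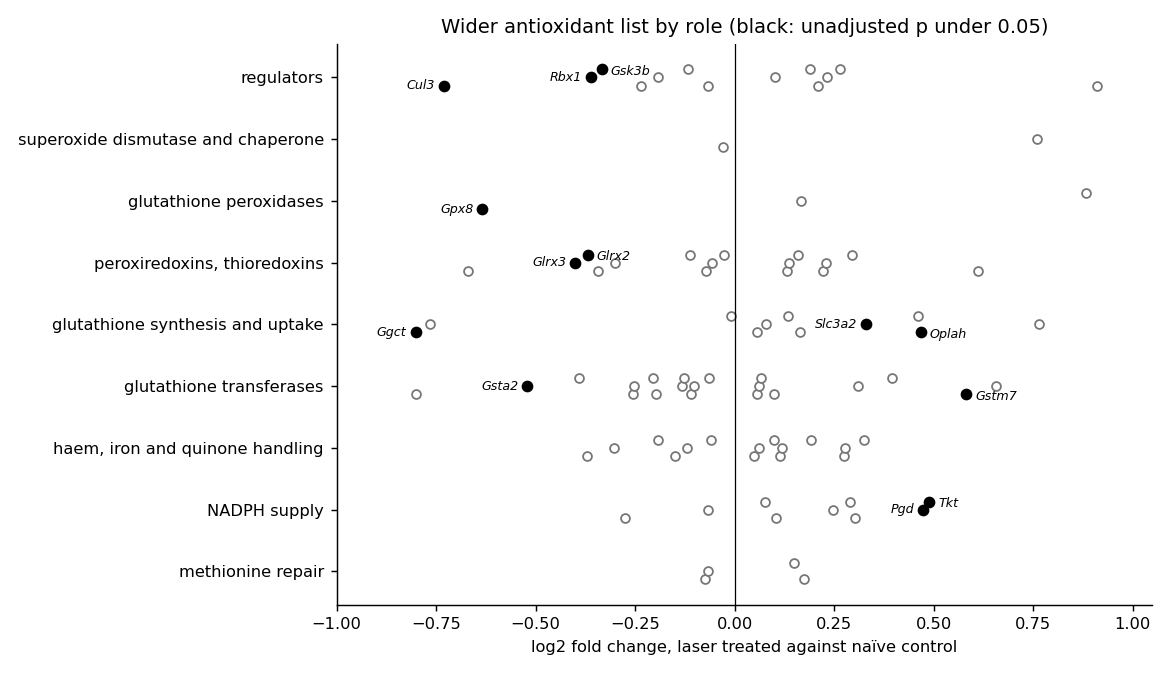
Log2 fold change between the groups (laser treated minus naïve control) for the 93 genes of the wider antioxidant list, a point per gene, in rows by role and shifted slightly within a row for legibility. Black points are the 13 genes with an unadjusted p under 0.05, and none passes the adjusted threshold.

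Among the 13 other regulators, 6 had a higher and 7 a lower mean after laser. Cul3, the scaffold of the ubiquitin ligase that Keap1 serves, had a mean of 151 CPM in controls and 90.8 CPM after laser, a log2 fold change of -0.73 (standard error 0.23, edgeR adjusted p = 0.185). Rbx1, the RING subunit of that ligase, had -0.36 and Gsk3b, a kinase that marks Nrf2 for another ligase, -0.33 (edgeR adjusted p = 0.282 and 0.299). With the GC trend removed Cul3 was at -0.34 and Rbx1 at -0.23, with unadjusted p of 0.094 and 0.131 in edgeR.

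The enzymes that supply NADPH, the reductant on which glutathione and thioredoxin recycling depend, had the highest median among the roles with over 2 genes, 0.25, with 7 of 9 genes higher and 2 lower. Pgd, of the pentose phosphate pathway, read 56.0 to 69.5 CPM in controls and 71.5, 91.1, 79.9, 89.9 and 80.5 CPM in laser treated libraries 1 to 5, so the groups were apart by a narrow margin. Its log2 fold change was 0.47 with a standard error of 0.11 (edgeR adjusted p = 0.172), and 0.30 with the GC trend removed (edgeR unadjusted p = 0.0097, adjusted p = 0.560). Tkt, a transketolase of the same pathway, had 0.49 (edgeR adjusted p = 0.223).

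For 11 genes listed under glutathione synthesis and uptake, the mean after laser was higher for 8 and lower for 3. Of all genes, 48.5% were higher. This role also holds enzymes that break down glutathione or gamma-glutamyl peptides, Ggct among them. An unadjusted p under 0.05 in edgeR was found for 2 of the 8 and 1 of the 3. Over all genes 8.24% were higher and 7.68% lower at that threshold. Slc3a2, the heavy chain of amino acid transporters, read 290.3 to 399.6 CPM in controls and 424 to 451 CPM after laser (log2 fold change 0.33, edgeR adjusted p = 0.195). Ggct, which breaks down gamma-glutamyl peptides, read 7.74 to 18.2 CPM in controls and 4.41 to 7.41 CPM after laser, a log2 fold change of -0.80 (edgeR adjusted p = 0.224). Oplah had 0.47 (edgeR adjusted p = 0.304). Gclc and Gclm, the subunits of the rate-limiting enzyme and common readouts of Nrf2, had 0.08 and 0.06 (edgeR adjusted p = 0.896 and 0.916).

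Of 16 peroxiredoxin, thioredoxin and glutaredoxin genes, 7 were higher and 9 lower. Glrx2 and Glrx3, glutaredoxins, had log2 fold changes of -0.37 and -0.40 (edgeR adjusted p = 0.233 and 0.252). Of 20 glutathione transferases, 8 were higher and 12 lower, with Gsta2 at -0.52 and Gstm7 at 0.58 (edgeR adjusted p = 0.256 and 0.259). Of the 3 other glutathione peroxidases in the table, 2 were higher and 1 lower. The lower was Gpx8, an enzyme of the endoplasmic reticulum, at -0.63 (edgeR adjusted p = 0.189).

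None of the 15 genes of haem, iron and quinone handling had an unadjusted p under 0.05 in edgeR, beside 15.9% of all genes, and 9 were higher and 6 lower. This group held 3 of the 5 most abundant genes of the wider list per length, the ferritin chains Fth1 at 3235 TPM and Ftl1 at 2580.4 TPM, and Akr1a1 at 1109.6 TPM. Gsto1 at 1033 TPM and Taldo1 at 1006 TPM followed. Gsto1, a glutathione transferase, was the most uneven of these, from 21.9 CPM in laser treated library 2 to 2045 CPM in naïve control library 6, and its log2 fold change of -0.80 had a standard error of 1.13. The remaining roles, the superoxide dismutase and its chaperone with 2 genes and methionine repair with 4, held no gene with an unadjusted p under 0.05 in edgeR.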

How the data were processed

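RNA of mouse RPE/choroid was sequenced after pre-amplification, in 6 naïve control and 5 laser treated libraries. The authors deposited raw counts of 14602 genes per library, neither normalized nor pooled. The submitters' processing notes name bcl2fastq 2.18.0.12, Trim Galore, STAR 2.5.3a, featureCounts 1.5.3, StringTie 1.3.3, edgeR 3.22.3 and the builds mm10 and GRCm38. The annotation release and strand setting are not given in the sources used here. The table also holds the authors' own comparison (log2 fold change, log2 CPM, F, p-value, FDR), which was not used. Per library, the authors deposited assembled transcripts with TPM as the unit. All had a single exon, so these values served only as an alternative.

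Counts were fitted over all genes with edgeR 4.0.16 in R 4.3.3 (TMM, filterByExpr, which kept all 14602 genes, robust quasi-likelihood, Benjamini-Hochberg). Total counts of 25700881 to 38755994 per library set the counting precision, and the standard errors include the spread between libraries. Transcript length and GC content came from GENCODE M21, which matched all but 350 genes. The GC trend was removed with a loess curve (span 0.3). Correlations used 100000 permutations. Alternatives were DESeq2 1.42.0, limma 3.58.1 voom, other normalizations and filters, a length trend, TPM with pseudocounts of 1 and 0.1, the label as covariate, the replicate number as a block and each library left out. The fits within the labels, their interaction and the exon-union lengths were chosen after seeing the data.

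The 10 genes and all lists were chosen with earlier results of these data known. Named were the 10 genes, every gene of the wider list with an unadjusted p under 0.05 and its 5 most abundant per length, and for each of the 10 the most similar gene; Gclc, Gclm, the partners of shared sequence and the markers were named after their values were seen. The values of 1 further marker gene are not reported here.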

Additional observations from a re-analysis of the deposited data

Results flagged for a closer look

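In a search for single libraries far from the rest of their group, 2 of 54 sets of values had one, and chance alone would give about 5% of sets. Nqo1 read 249.5 CPM in laser treated library 1, while the other 4 laser treated libraries read 117 to 153 CPM. Pgd read 69.5 CPM in naïve control library 6, while the other 5 controls read 56.0 to 59.0 CPM. The part of depth or tissue makeup in these 2 values was not tested.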

How the results depend on the processing

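Across 27 alternatives, none of the 10 genes passed an adjusted p of 0.05, and Keap1, Prdx1 and Sod1 kept their direction in all 27 (log2 fold changes of 0.04 to 0.45, -0.53 to -0.10 and -0.63 to -0.04). DESeq2 called 502 genes of the table and 2 of the wider list, and gave Hmox1 no adjusted p. The minimum of 10 counts called 2 genes of the table, voom 1, the length trend 1 and transcript TPM 2 and 3 (pseudocounts 1 and 0.1), and leaving out a library 0 to 4, the 4 without laser treated library 2. An unadjusted p under 0.05 was found for 1 of the 10 with the GC trend removed, with or without the replicate block (Sod1, edgeR). It was found for Prdx1 alone with the length trend removed (edgeR) and for Keap1 alone with TPM (limma). The number was 0 within R1 or R2, and 0 to 3 when a library was left out. Over all genes these were 1202 (GC trend removed), 1541 (GC trend removed with the block), 2280 (length trend removed), 2012 and 1971 (TPM), 2547 (within R1), 903 (within R2) and 1685 to 2771 when a library was left out.

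Fold changes near 0 turned sign. With the GC trend removed, alone and with the block, the log2 fold changes were 0.0096 and 0.0204 for Nfe2l2, 0.24 and 0.20 for Sod2, -0.17 and -0.24 for Gpx1, and -0.18 and -0.27 for Gpx4. With TPM at pseudocounts of 1 and 0.1 they were 0.14 and 0.15 for Nfe2l2, -0.10 and -0.10 for Cat, and -3.16 and -4.57 for Gpx4, whose assembled transcripts were at 0 in 6 libraries. Cat was at -0.0038 with the length trend removed. Within R2 they were -0.0654 for Hmox1, -0.32 for Nqo1, -0.13 for Cat, -0.0031 for Gpx1 and -0.22 for Gpx4, and within R1 Sod2 was at 0.0712. When a library was left out they ran from -0.1068 to 0.1856 for Nqo1, -0.1239 to 0.0135 for Sod2, -0.0094 to 0.1175 for Cat, -0.1114 to 0.1641 for Gpx1 and -0.0751 to 0.1696 for Gpx4. The cause was not tested.

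Replicate numbers did not pair the libraries. Same-numbered libraries correlated at -0.01 to 0.28 in their deviations, and 2 of 5 laser treated libraries correlated best with their own number. With the number as a block, 0 genes were called, and an unadjusted p under 0.05 was found for 3 of the 10 and for 2539 of 14539 genes.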
